A study of Mus musculus with 9 samples.

Results

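The genes described here are 34 that mark or serve microglia, the resident macrophages of the brain. They were taken by name from a list of microglial genes, with no rule on their measured values, although the list was drawn up with earlier results of these data known. All 34 were present among the 18956 gene symbols of the read count table, and all 34 passed the filter on low counts that left 18194 genes to test. They were split by role into 3 homeostatic core genes (P2ry12, Tmem119 and Cx3cr1), 9 further genes of the homeostatic signature, 8 genes of the myeloid lineage, 6 genes of the complement system and its receptors, and 8 genes of phagocytosis and activation.

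Bulk RNA-seq was done on brain tissue of BALB/c mice, which the labels name as the anterior part of the paraventricular thalamic nucleus (aPVT), in 9 libraries. The groups, of 3 libraries each, were mice given 5 days of social defeat (smSDS) and (2S,6S)-HNK, a hydroxynorketamine called SHNK here, mice given the same defeat and saline, and non-stressed mice given saline. In social defeat a mouse is repeatedly attacked by an aggressive resident. All groups share the strain. The labels give no age, sex, dose or dissection, nor whether replicates are different animals, and a p-value below therefore covers only the variation among libraries, which may be technical.

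Microglia survey brain tissue through fine processes, and P2ry12, a receptor for ADP, guides those processes to injured cells. Cx3cr1 receives fractalkine from neurons, Csf1r receives the survival signals CSF1 and IL-34, and the transcription factor PU.1, encoded by Spi1, sets the myeloid identity of the cells. Microglia are also the main source of C1q in the brain, the complement component that can tag synapses for removal through the receptor built from Itgam and Itgb2. Homeostatic genes such as P2ry12 and Tmem119 are typically lowered in activated microglia, while phagocytic genes such as Spp1, Cd68 and Trem2 are typically raised.

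Because PU.1 binds near many microglial genes, the promoters were searched for 3 motifs, on both strands, in the 250 bases before each start site that RefSeq gives for GRCm38.p6. A promoter was on hand for 26 of the 34 genes. The PU.1-type core GGAAGT was found before a start site of 10 of these 26 genes (38.5%), among 24.6% of the 13236 genes of the count table with a promoter. The longer GAGGAAGT, which contains GGAAGT, was found in 2 of 26 (7.69%, against 2.63% of the count table's genes), C1qc and Spp1, and the composite element of PU.1 and its partner IRF8 in 0 of 26 (against 2.39%). The windows below are shown for 1 core gene, both members of the C1q cluster that hold a motif, and the single member whose level differed between groups. They are printed on the gene's own strand, with the motif or its reverse complement in capitals and 25 bases on either side.
P2ry12, chr3:59263006-59263061, minus strand: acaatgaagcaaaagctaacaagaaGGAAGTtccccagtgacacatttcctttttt
C1qb, chr4:136886223-136886278, minus strand: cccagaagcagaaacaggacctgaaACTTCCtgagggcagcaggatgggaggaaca
C1qc, chr4:136893077-136893134, minus strand: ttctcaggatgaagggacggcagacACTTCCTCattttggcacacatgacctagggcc
Spp1, chr5:104434973-104435030, plus strand: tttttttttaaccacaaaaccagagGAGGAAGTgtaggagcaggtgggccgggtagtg
The motif starts 51 bases before the start site of P2ry12, 53 bases before that of C1qb, 195 before that of C1qc and 113 before that of Spp1. A match of letters is a description and does not show that PU.1 binds there.

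Several members lie side by side on GRCm38.p6. C1qb, C1qc and C1qa follow each other on chromosome 4 with gaps of 3.60 and 2.98 kb, P2ry13 and P2ry12 are 5.39 kb apart on chromosome 3, and Tmem119 and Selplg are 17.4 kb apart on chromosome 5. Per length, as CPM (a gene's counts scaled to library size) per kb of the median transcript and averaged over the 9 libraries, the highest levels were those of the lysosomal protease Ctss (51.8), Spp1 (36.2), C1qb (34.7), C1qa (27.2) and C1qc (26.2). Tmem119 stood at 14.98, P2ry12 at 13.9, Csf1r at 8.58 and Cx3cr1 at 4.45 on the same scale. The lowest were the anaphylatoxin receptor C3ar1 (0.189) and the pan-leukocyte phosphatase Ptprc, or CD45 (0.185). All 3 core genes were detected in each library, with counts of 559 to 1735, and none of them was among the lowest of the set.

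Together the 34 genes took 0.0515% to 0.0543% of all counts in the SHNK libraries, 0.0513% to 0.0557% in the stressed saline libraries and 0.0523% to 0.0571% in the non-stressed libraries. Total counts ran from 32307869 to 51569143 per library. Of the 34 genes, 31 had at least 100 counts in every library, and the lowest count was 22, for Ptprc. Calb2, the calretinin gene used as a marker of midline thalamus, was measured in all groups. It averaged 1838 ± 193 CPM in SHNK, 2096 ± 371 CPM in stressed saline and 2033 ± 113 CPM in non-stressed libraries (SD, n = 3 each). As a single gene chosen after its values were seen, Calb2 does not show which neurons the tissue held. In bulk tissue, fewer microglia and less of an RNA per microglial cell cannot be told apart, which holds for every level below.

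Transcripts of neighbouring tissue also differed between the groups. The mean log2 CPM of 13 genes of the habenula, which borders the aPVT, was 0.60 ± 0.31 in SHNK, 4.50 ± 0.86 in stressed saline and 2.28 ± 0.68 in non-stressed libraries (SD, n = 3 each), with the highest value, 5.35, in stressed saline replicate 2. The mean of 14 ependymal genes was 2.95 ± 0.40 in SHNK, 3.82 ± 0.32 in stressed saline and 2.72 ± 0.22 in non-stressed libraries (SD, n = 3 each). The mean of the 34 microglial genes was far steadier than either of these lists. It was 3.20 ± 0.04 in SHNK, 3.21 ± 0.07 in stressed saline and 3.30 ± 0.08 in non-stressed libraries, and the groups overlapped. Its lowest and highest library were 0.22 apart on this log2 scale, against 4.96 for the habenula genes and 1.67 for the ependymal genes. Some other lists lay between, with 0.278 for 28 further microglial genes, 0.428 for 15 endothelial and mural genes and 0.494 for 14 oligodendrocyte genes.

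**Figure D1:**
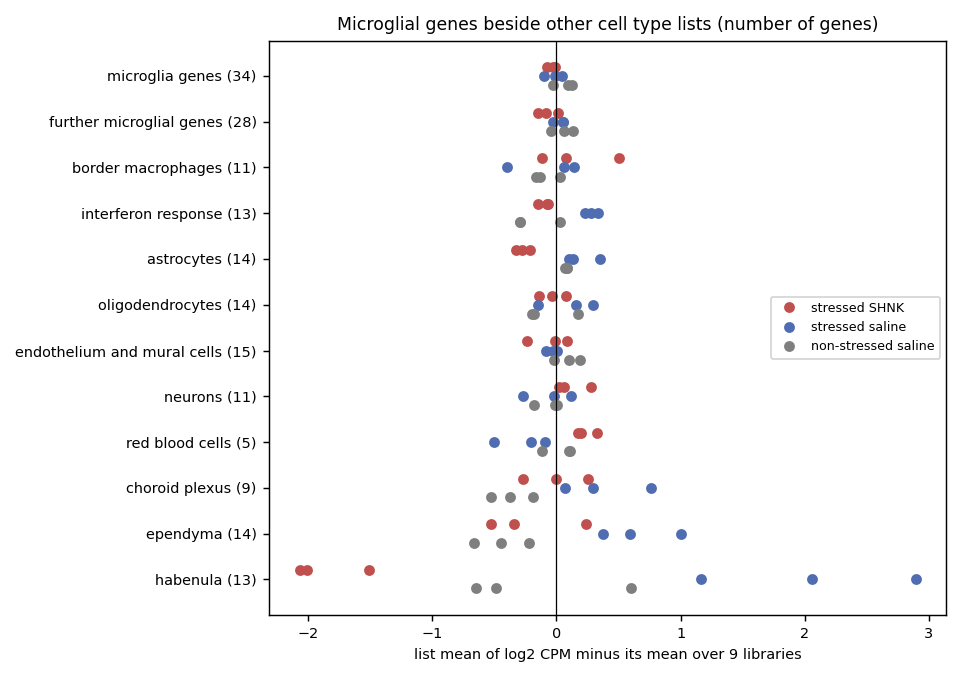
Mean log2 CPM of gene lists in each of the 9 libraries, drawn as the difference from the list's mean over all libraries; rows are lists with the number of genes measured, and each point is a library, coloured by group. The points of the 34 microglial genes span 0.22, while those of the habenula list span 4.96 and do not overlap between the groups.

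Social defeat was compared first, as stressed saline against non-stressed saline. No microglial gene passed the test: 0 of 34 had an adjusted p below 0.05 in edgeR's quasi-likelihood test, adjusted by Benjamini-Hochberg over all 18194 genes, of which 1.17% did. At an unadjusted p below 0.05 there was 1 of 34, Spp1 (2.94%, against 9.45% of all genes), and DESeq2 and limma voom called 0 as well. The log2 fold changes lay between -0.39 for Spp1 and 0.34 for Mertk, with a median of -0.09 beside -0.02 over all genes. Of the 34 estimates, 26 were below 0 and 8 above (23.5% above, beside 45.5% of all genes). The 95% intervals of all 34 lay within a 2-fold change in either direction, and those of 25 within a 1.5-fold change. The stressed and non-stressed libraries did not overlap for 4 of 34 genes, Cx3cr1, Siglech, Fcrls and Mertk (11.8%, against 12.9% of all genes).

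SHNK was then compared with saline in stressed mice, which shares the stressed saline libraries with the first comparison. Here 1 of 34 genes passed at an adjusted p below 0.05, Spp1, which rose (2.94% of the members, against 6.41% of all genes, of which 2.45% were higher and 3.96% lower). At an unadjusted p below 0.05 there were 3, Spp1, P2ry13 and Mertk (8.82%, against 23.3% of all genes). The groups did not overlap for 5 of 34, Siglech, Spi1, Laptm5, Trem2 and Spp1 (14.7%, against 30.4% of all genes). The median log2 fold change was -0.05, beside -0.01 over all genes. Of the estimates, 15 were above 0 and 19 below (44.1% above, beside 48.7% of all genes). For 33 of 34 genes, all but Spp1, the interval lay within a 2-fold change, and for 24 it lay within a 1.5-fold change.

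SHNK-treated stressed mice were last set against non-stressed mice, with libraries that the other comparisons also use. No member passed, 0 of 34 against 0.0055% of all genes, which is a single gene. At an unadjusted p below 0.05 there were 3, Spp1, Laptm5 and Itgam (8.82%, against 18.3%), DESeq2 called 1 (Spp1, adjusted p = 0.0209) and limma voom 0. Without non-stressed replicate 2, edgeR called 2 members, Spp1 (adjusted p = 0.0432) and Laptm5 (adjusted p = 0.0474), and 749 genes in all. The groups did not overlap for 7 of 34 (20.6%, against 21.3%), and the median log2 fold change was -0.13, beside -0.00491 over all genes. Of the 34 estimates, 24 were below 0 and 10 above (29.4% above, beside 49.2% of all genes). In the test of any difference among the 3 groups, 1 of 34 genes passed in edgeR, Spp1 (edgeR adjusted p = 0.0128), against 4.88% of all genes. That call was lost without stressed saline replicate 2 and without SHNK replicate 3, where 187 and 201 genes in all passed.

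**Figure D2:**
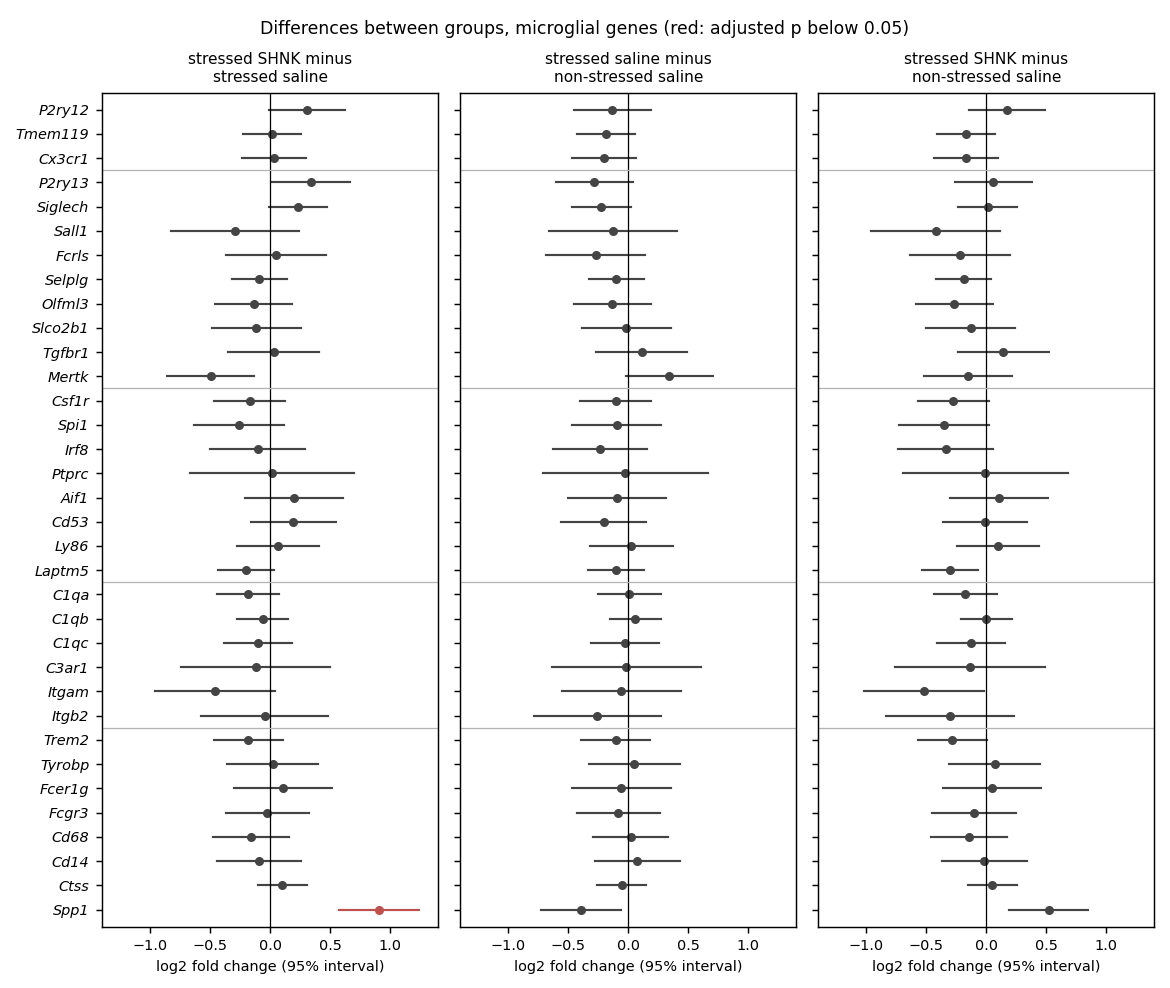
Log2 fold change of each of the 34 microglial genes in the 3 comparisons, with points for the estimate, lines for its 95% interval from the edgeR fit and grey rules between the role classes. Spp1 in SHNK against stressed saline, drawn in red at 0.91, is the only estimate past an adjusted p of 0.05.

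Among the 3 core genes, P2ry12 had 30.4, 30.9 and 41.2 CPM in the SHNK libraries, 30.9, 30.7 and 21.2 CPM in stressed saline and 30.5, 31.9 and 28.6 CPM in non-stressed libraries. Most libraries sat near 30 CPM, with SHNK replicate 3 above and stressed saline replicate 3 below, and the groups overlapped. P2ry12 differed by 0.30 ± 0.15 (log2 fold change ± SE) between SHNK and stressed saline (edgeR adjusted p = 0.236) and by -0.13 ± 0.15 between stressed saline and non-stressed (edgeR adjusted p = 0.919). Tmem119, a membrane protein used to tell microglia from other macrophages, had 32.3, 34.5 and 30.1 CPM in SHNK, 33.99, 30.8 and 31.4 CPM in stressed saline and 30.8, 36.2 and 42.1 CPM in non-stressed libraries. The SHNK and stressed saline values of Tmem119 covered almost the same range, and non-stressed replicate 3 was the highest. Its difference was 0.01 between SHNK and stressed saline, with a 95% interval of -0.23 to 0.26, and -0.18 between stressed saline and non-stressed, with an interval of -0.42 to 0.06.

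Cx3cr1 had 13.5, 16.9 and 18.0 CPM in SHNK, 15.8, 15.8 and 15.7 CPM in stressed saline and 17.7, 20.4 and 16.5 CPM in non-stressed libraries. The stressed saline values were nearly equal and all lay below the non-stressed ones, while SHNK replicate 1 was the lowest of all 9 libraries and SHNK replicates 2 and 3 lay within the non-stressed range. The difference of stressed saline from non-stressed was -0.20 ± 0.12 (edgeR adjusted p = 0.725). Its ligand fractalkine, Cx3cl1, differed by -0.23 ± 0.09 in that comparison (edgeR adjusted p = 0.421) and by 0.22 ± 0.09 between SHNK and stressed saline (edgeR adjusted p = 0.174).

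The other 9 genes of the homeostatic signature had 2 with an unadjusted p below 0.05 for SHNK against stressed saline, P2ry13 and Mertk. This is near the share over all genes, 23.3%. P2ry13, a purine receptor gene next to P2ry12, had 7.05, 8.21 and 9.40 CPM in SHNK, 6.18, 7.20 and 6.05 CPM in stressed saline and 8.397, 7.08 and 8.12 CPM in non-stressed libraries. SHNK replicates 2 and 3 exceeded every stressed saline library, and SHNK replicate 1 did not. The difference was 0.34 ± 0.15 (edgeR adjusted p = 0.19). Siglech, a sialic acid-binding receptor, had 12.7, 14.3 and 14.99 CPM in SHNK, 11.97, 11.95 and 11.74 CPM in stressed saline and 14.1, 14.9 and 12.7 CPM in non-stressed libraries. All 3 stressed saline values of Siglech lay below all others, with differences of 0.23 ± 0.11 for SHNK against stressed saline (edgeR adjusted p = 0.236) and -0.22 ± 0.11 for stressed saline against non-stressed (edgeR adjusted p = 0.599).

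Mertk, a receptor kinase that takes up apoptotic cells, had the opposite order. It had 7.05, 6.07 and 4.83 CPM in SHNK, 9.11, 9.32 and 6.87 CPM in stressed saline and 6.73, 6.36 and 6.87 CPM in non-stressed libraries. Stressed saline replicates 1 and 2 were above every other library, and SHNK replicate 3 was the lowest. The difference between SHNK and stressed saline was -0.49 ± 0.17 (edgeR adjusted p = 0.0961), and DESeq2 (adjusted p = 0.0426) and limma voom (adjusted p = 0.0337) put it past the threshold. Stressed saline minus non-stressed was 0.34 ± 0.17 (edgeR adjusted p = 0.573). Mertk is also expressed by astrocytes. Of 14 astrocyte genes, 7 fell in SHNK against stressed saline (beside 3.96% of all genes), with a median log2 fold change of -0.39. In stressed saline against non-stressed, 2 of the 14 rose, Gfap and Aqp4 (beside 1.17% of all genes called in either direction), while 9 of the 14 estimates were below 0 and the median was -0.07. Their mean log2 CPM was 7.43 ± 0.06 in SHNK, 7.90 ± 0.13 in stressed saline and 7.78 ± 0.01 in non-stressed libraries, and their part in the Mertk values was not tested. The remaining 6 genes of the signature (Sall1, Fcrls, Selplg, Olfml3, Slco2b1 and Tgfbr1) had log2 fold changes of -0.29 to 0.05 for SHNK against stressed saline and of -0.27 to 0.11 for stressed saline against non-stressed. Sall1, a transcription factor that maintains microglial identity, was the most variable of them, with 3.37, 3.08 and 2.77 CPM in SHNK, 4.84, 2.27 and 4.22 CPM in stressed saline and 3.77, 4.86 and 3.78 CPM in non-stressed libraries. Stressed saline replicate 2 was the lowest library, and the SHNK values lay below the non-stressed ones, by -0.42 ± 0.25 (edgeR adjusted p = 0.393). Selplg, a selectin ligand gene next to Tmem119, averaged 28.2 ± 2.1 CPM in SHNK, 29.99 ± 2.54 CPM in stressed saline and 32.2 ± 3.3 CPM in non-stressed libraries (SD, n = 3 each). Tgfbr1, a receptor for the TGF-beta signal that keeps microglia in their homeostatic state, averaged 5.22 ± 0.43 CPM in SHNK, 5.09 ± 0.97 CPM in stressed saline and 4.72 ± 0.44 CPM in non-stressed libraries (SD, n = 3 each).

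**Figure D3:**
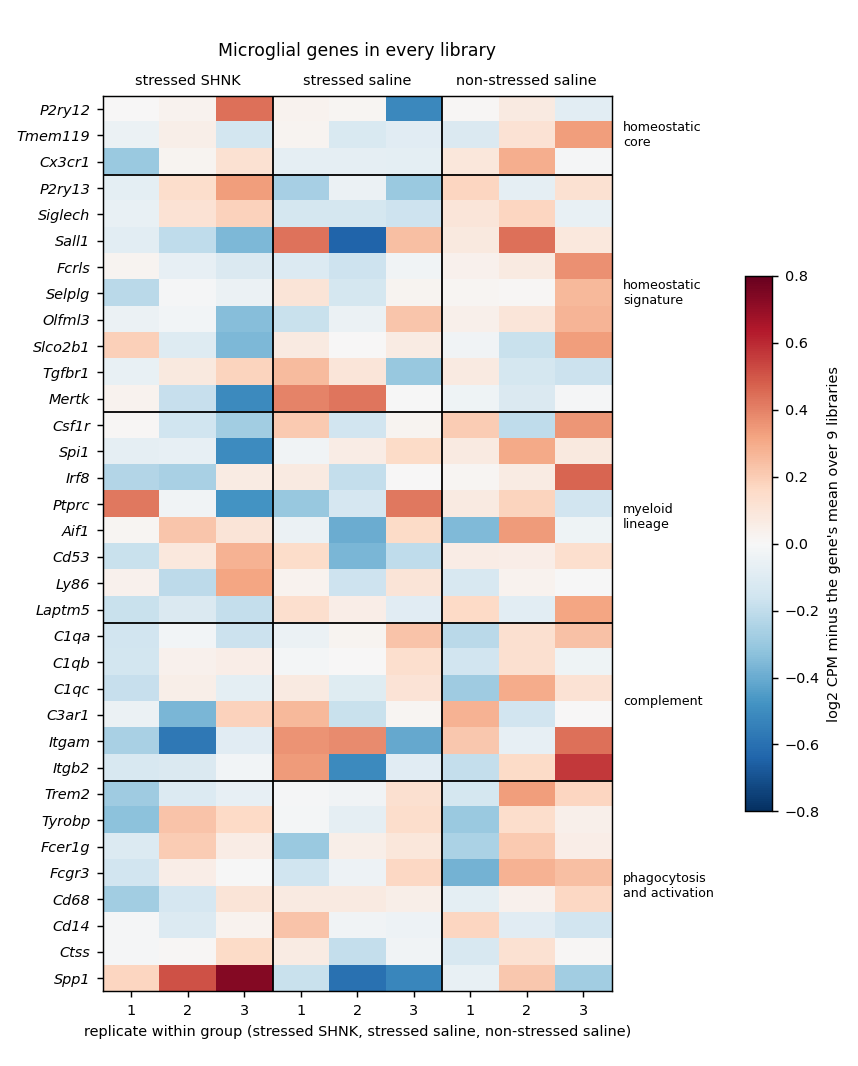
Level of each of the 34 microglial genes (rows, by role) in each library (columns, by group and replicate), as log2 CPM minus the gene's mean over the 9 libraries; red is above and blue below that mean. The Spp1 row is red in the 3 SHNK libraries and blue in the 3 stressed saline libraries, which no other row shows; Sall1, Selplg, Olfml3 and Spi1 are blue in all SHNK and red in all non-stressed libraries, and Fcrls is blue in all stressed saline and red in all non-stressed libraries.

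Of the 8 lineage genes, 0 passed in any comparison in edgeR, DESeq2 or limma voom. At an unadjusted p below 0.05 in edgeR there was 1, Laptm5, in SHNK against non-stressed (beside 18.3% of all genes). Csf1r had 36.6, 32.6 and 30.0 CPM in SHNK, 42.0, 32.7 and 37.0 CPM in stressed saline and 41.9, 31.5 and 46.5 CPM in non-stressed libraries. The groups overlapped, with differences of -0.17 ± 0.14 for SHNK against stressed saline (edgeR adjusted p = 0.508) and -0.10 ± 0.14 for stressed saline against non-stressed (edgeR adjusted p = 0.944). Of the exon bases of Csf1r, 35.4% overlap Hmgxb3 on the opposite strand, and since the strandedness of the libraries is not given in the sources used here, reads of this stretch may belong to either gene. Hmgxb3 itself differed by -0.25 ± 0.14 in SHNK against stressed saline (edgeR adjusted p = 0.316). Il34, a ligand of Csf1r, differed by 0.13 ± 0.17 between stressed saline and non-stressed and by -0.19 ± 0.17 between SHNK and stressed saline.

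Laptm5, a lysosomal membrane protein of haematopoietic cells, had 27.0, 28.2 and 26.7 CPM in SHNK, 33.5, 31.7 and 28.8 CPM in stressed saline and 34.1, 28.8 and 38.1 CPM in non-stressed libraries. The SHNK values lay below all 6 others. The difference from non-stressed was -0.30 ± 0.11 (edgeR adjusted p = 0.161), and that from stressed saline -0.20 ± 0.11 (edgeR adjusted p = 0.295). Spi1, the gene of PU.1, averaged 4.04 ± 0.67 CPM in SHNK, 4.85 ± 0.31 CPM in stressed saline and 5.18 ± 0.48 CPM in non-stressed libraries (SD, n = 3 each), again with every SHNK value below all others. Its differences were -0.26 ± 0.17 against stressed saline (edgeR adjusted p = 0.401) and -0.35 ± 0.17 against non-stressed (edgeR adjusted p = 0.301).

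Irf8, the partner of PU.1, averaged 4.06 ± 0.53 CPM in SHNK, 4.36 ± 0.41 CPM in stressed saline and 5.12 ± 0.92 CPM in non-stressed libraries (SD, n = 3 each), with non-stressed replicate 3 the highest at 6.18 CPM. Aif1, which encodes the IBA1 protein widely used to stain microglia, had 7.02, 8.12 and 7.47 CPM in SHNK, 6.73, 5.27 and 7.74 CPM in stressed saline and 5.44, 8.83 and 6.796 CPM in non-stressed libraries. The Aif1 values of all groups overlapped, and its differences were 0.20 ± 0.19 for SHNK against stressed saline (edgeR adjusted p = 0.58) and -0.09 ± 0.19 for stressed saline against non-stressed (edgeR adjusted p = 0.98). The tetraspanin Cd53 and the Toll-like receptor accessory protein gene Ly86 differed by 0.19 ± 0.16 and 0.07 ± 0.16 in SHNK against stressed saline. Ptprc was the least precisely measured member, with a 95% interval of -0.67 to 0.70 around 0.02 in that comparison.

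The C1q chains are encoded by C1qa, C1qb and C1qc. C1qa had 25.3, 27.7 and 25.04 CPM in SHNK, 27.2, 28.6 and 33.0 CPM in stressed saline and 24.2, 30.8 and 33.2 CPM in non-stressed libraries. C1qb had 34, 38.6 and 39.1 CPM in SHNK, 37.3, 37.8 and 41.5 CPM in stressed saline and 33.9, 41.1 and 36.8 CPM in non-stressed libraries. C1qc had 27.5, 32.3 and 29.6 CPM in SHNK, 32.8, 29.3 and 33.8 CPM in stressed saline and 25.6, 38.4 and 33.8 CPM in non-stressed libraries. For each chain the groups overlapped, and non-stressed replicate 1 was the lowest library of all. Their differences were small, at -0.18 ± 0.12, -0.06 ± 0.10 and -0.10 ± 0.13 for C1qa, C1qb and C1qc in SHNK against stressed saline (edgeR adjusted p = 0.392, 0.762 and 0.707), and between -0.03 and 0.06 in stressed saline against non-stressed. The interval for C1qb in the stress comparison, -0.15 to 0.27, is among the narrowest of the set.

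Itgam, the CD11b chain of the complement receptor, had 3.26, 2.61 and 3.67 CPM in SHNK, 5.03, 5.08 and 2.93 CPM in stressed saline and 4.54, 3.73 and 5.32 CPM in non-stressed libraries. Every SHNK value lay below the non-stressed ones, while stressed saline replicate 3 fell among the SHNK values. The difference of SHNK from non-stressed was -0.52 ± 0.23 (edgeR adjusted p = 0.255), with an interval of -1.02 to -0.02, and that from stressed saline was -0.46 ± 0.23 (edgeR adjusted p = 0.255). Its partner Itgb2 differed by -0.30 ± 0.25 from non-stressed and by -0.05 ± 0.25 from stressed saline. Of the exon bases of Itgam, 70% are shared with the gene model Gm49368 on the same strand, so reads could have been split between them. Unlike Hmgxb3, Gm49368 is not among the symbols of the count table.

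Outside the set, C4b, a complement component that acts after C1q, passed in both of the first comparisons. C4b had 3.22, 3.08 and 1.79 CPM in SHNK, 7.52, 6.297 and 7.24 CPM in stressed saline and 2.54, 2.88 and 3.68 CPM in non-stressed libraries. The stressed saline values were well above all others. C4b rose by 1.21 ± 0.22 in stressed saline against non-stressed (edgeR adjusted p = 0.0161) and fell by 1.37 ± 0.22 in SHNK against stressed saline (edgeR adjusted p = 0.00496). By group mean, the habenula list had the same order of groups as C4b. The ependymal list was also highest in stressed saline, but lowest in non-stressed libraries. Of 13 habenula genes, 10 rose with stress (beside 1.17% of all genes called in either direction) and 13 fell with SHNK (beside 3.96%). Of 14 ependymal genes, 10 rose with stress and 8 fell with SHNK. The astrocyte genes Gfap (1.51 ± 0.29 for stress and -1.89 ± 0.29 for SHNK) and Aqp4 (0.70 ± 0.13 and -0.85 ± 0.13) did likewise, and the part of these tissues and cells in the C4b values was not tested. C4b was 1 of 14 ligands of microglial receptors and complement genes to pass in the first comparison (beside 1.17% of all genes). In the second, 4 of 14 passed (beside 6.41% of all genes): Cd47, a signal against uptake by phagocytes, rose by 0.53 ± 0.09 (edgeR adjusted p = 0.00666), and C4b, Clu and Apoe fell.

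The TREM2 receptor and its adaptor Tyrobp carry the signal for phagocytosis of lipids and debris. Trem2 had 10.1, 11.5 and 11.8 CPM in SHNK, 12.3, 12.1 and 13.5 CPM in stressed saline and 11.2, 15.6 and 13.9 CPM in non-stressed libraries. All SHNK values lay below all stressed saline values, by -0.18 ± 0.13 (edgeR adjusted p = 0.455), and SHNK differed from non-stressed by -0.28 ± 0.13 (edgeR adjusted p = 0.282). Tyrobp had 5.38, 7.94 and 7.58 CPM in SHNK, 6.69, 6.45 and 7.46 CPM in stressed saline and 5.503, 7.46 and 6.97 CPM in non-stressed libraries, with groups that overlapped throughout. Apoe and Clu, which bind TREM2, fell in SHNK against stressed saline by 0.40 ± 0.10 and 0.47 ± 0.08 (edgeR adjusted p = 0.0332 for Apoe and 0.00496 for Clu). Astrocytes are the main source of both in brain.

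Cd68, a lysosomal glycoprotein of phagocytes, had 5.47, 6.05 and 7.12 CPM in SHNK, 6.96, 6.96 and 6.87 CPM in stressed saline and 6.29, 6.80 and 7.43 CPM in non-stressed libraries. The endotoxin coreceptor Cd14 had 4.86, 4.54 and 5.00 CPM in SHNK, 5.75, 4.80 and 4.76 CPM in stressed saline and 5.53, 4.60 and 4.39 CPM in non-stressed libraries. Both overlapped in every comparison, with differences of -0.16 ± 0.15 for Cd68 and -0.09 ± 0.16 for Cd14 in SHNK against stressed saline. In stressed saline against non-stressed they were 0.02 ± 0.15 and 0.08 ± 0.16. Ctss had the narrowest interval of the set, -0.26 to 0.15 in the stress comparison, around a difference of -0.05. The Fc receptor genes Fcer1g and Fcgr3 differed by 0.10 ± 0.19 and -0.02 ± 0.16 in SHNK against stressed saline; Fcgr3 has close paralogs, so its counts are less certain.

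**Figure D4:**
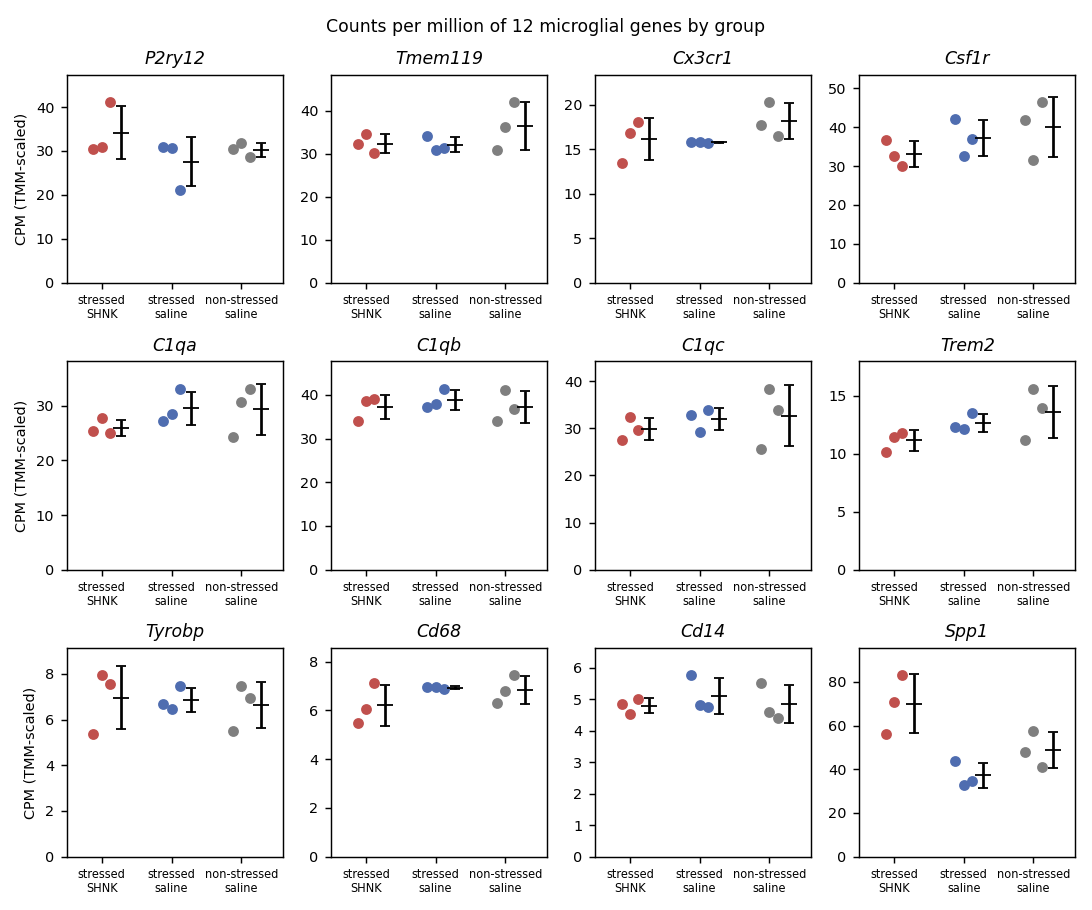
CPM, scaled by TMM, of 12 microglial genes in each library (coloured points, replicates 1 to 3 from left to right within a group), with the group mean and SD in black; each axis starts at 0. Spp1 lies at 56.0 to 82.9 CPM in SHNK, above all stressed saline libraries (32.9 to 43.9 CPM), and in the other panels no difference passed an adjusted p of 0.05.

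Spp1 encodes osteopontin, a secreted phosphoprotein that binds integrins and CD44 and is made by phagocytic microglia and border macrophages, and also by some neurons. Spp1 had 56.0, 70.8 and 82.9 CPM in SHNK, 43.9, 32.9 and 34.7 CPM in stressed saline and 47.7, 57.7 and 41.1 CPM in non-stressed libraries. All SHNK libraries were above all stressed saline libraries, and SHNK replicate 1 was within the non-stressed range. Spp1 rose by 0.91 ± 0.16 in SHNK against stressed saline, with a 95% interval of 0.58 to 1.24 (edgeR adjusted p = 0.00583). It differed by -0.39 ± 0.16 in stressed saline against non-stressed (edgeR adjusted p = 0.391) and by 0.52 ± 0.15 in SHNK against non-stressed (edgeR adjusted p = 0.113). The rise against stressed saline passed under each alternative run, including each library left out in turn, where the log2 fold change was 0.77 to 1.05 and the highest adjusted p 0.045, without SHNK replicate 3. Without stressed saline replicate 2, the log2 fold change was 0.83 (edgeR adjusted p = 0.0341).

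Markers of border macrophages, neurons, red blood cells and the habenula were read beside Spp1. Of 15 genes of border macrophages, 4 are not analysed here and 0 of the other 11 passed in any comparison in edgeR, DESeq2 or limma voom. At an unadjusted p below 0.05 in edgeR there was 1 in each comparison. For SHNK against stressed saline it was Stab1, which was lower (-0.69 ± 0.28, beside 23.3% of all genes). In the stress comparison (beside 9.45%) and for SHNK against non-stressed (beside 18.3%) it was the mannose receptor Mrc1, which was higher. Mrc1 was scarce and averaged 0.84 ± 0.33 CPM in SHNK, 0.52 ± 0.29 CPM in stressed saline and 0.20 ± 0.02 CPM in non-stressed libraries. It differed by 0.69 ± 0.44 between SHNK and stressed saline (edgeR adjusted p = 0.368). In that comparison, 9 of the 11 estimates of the border macrophage list were above 0 and 2 below, with a median log2 fold change of 0.28. Over all genes, 48.7% were above 0 and the median was -0.01. The mean log2 CPM of that list ran from -0.19 to 0.43 in SHNK, from -0.48 to 0.06 in stressed saline and from -0.24 to -0.05 in non-stressed libraries. Of 11 neuronal genes, 3 rose in SHNK against stressed saline (Snap25, Syt1 and Stmn2, by 0.42 to 0.52), beside 2.45% of all genes. Of 5 red blood cell genes, 4 rose in the same comparison (the globins, by 0.47 to 0.57). All 13 habenula genes fell in that comparison, beside 3.96% of all genes. The part of these tissues and cells in the Spp1 values was not tested. Of the exon bases of Spp1, 18.8% are shared with the gene model Gm42793 on the same strand, which is not among the symbols of the count table.

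Lists named for other microglial programmes, outside the set, were read as well. In bulk tissue the cells that gave these RNAs cannot be told apart. The part of astrocytes and other cells in these values was not tested. The count table holds no gene with a count of 0 in any library, so a gene without reads in even 1 library could not be read. Of 28 further microglial genes measured out of 30, 0 passed for stress in edgeR, DESeq2 or limma voom, with 1 at an unadjusted p below 0.05 in edgeR. In SHNK against stressed saline 1 fell, the integrin Itgb5 (log2 fold change -0.41 ± 0.10, edgeR adjusted p = 0.0262), which astrocytes also express. Of 12 genes of the disease-associated state measured out of 16, 2 fell with SHNK, Apoe and the tetraspanin Cd63 (-0.45 ± 0.11, edgeR adjusted p = 0.0276). For stress, 0 of these 12 passed in edgeR and in limma voom and 2 in DESeq2, with 3 at an unadjusted p below 0.05 in edgeR. Of 12 genes of inflammatory signalling measured out of 22, the adhesion molecule Icam1 fell with SHNK (-0.86 ± 0.24, edgeR adjusted p = 0.0466). For stress 0 of these 12 passed in edgeR, DESeq2 or limma voom, with 1 at an unadjusted p below 0.05 in edgeR. Of 13 interferon response genes, 3 fell with SHNK, Irf7 (-0.77 ± 0.20, edgeR adjusted p = 0.0382) and the class I genes H2-D1 (-0.40 ± 0.10) and H2-K1 (-0.46 ± 0.12), and for stress 0 passed in edgeR, 2 in DESeq2 and 1 in limma voom. In the stress comparison, 8 of these 13 had an unadjusted p below 0.05 in edgeR, all higher, and the median log2 fold change was 0.51. The edgeR counts at an adjusted p below 0.05 stand beside 6.41% of all genes called for SHNK and 1.17% for stress. Those at an unadjusted p below 0.05 for stress stand beside 9.45% of all genes.

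Single libraries also stood out across many members. Non-stressed replicate 3 was the highest library for 12 members and non-stressed replicate 2 for 8, while SHNK replicate 3 was the highest for 7 and the lowest for 8. By group mean, 19 members were highest in non-stressed, 10 in SHNK and 5 in stressed saline libraries. By the same means, 20 were lowest in SHNK, 11 in stressed saline and 3 in non-stressed libraries. Deviations differed by transcript length. In SHNK replicate 3, the 16 members with a median transcript of up to 2000 bases had a median deviation of 0.08 and the 18 longer ones -0.13, beside 0.09 for short and -0.07 for long genes over the whole table. In non-stressed replicate 1 the same medians were -0.14 and 0.07 for members, beside -0.10 and 0.07 for all genes. Members lay further from all genes in other libraries. In non-stressed replicate 3 the short and long medians were 0.047 and 0.196 for members, beside -0.03 and 0.03 for all genes. In SHNK replicate 1 they were -0.15 and -0.05, beside 0.001 and 0.009. In SHNK against non-stressed, the median log2 fold change was -0.01 for short and -0.20 for long members, beside 0.08 and -0.06 for short and long genes overall. The part of transcript length in the differences between groups was not tested. Excluding Spp1, the coefficient of variation over the 9 libraries was at most 25% for any member, and 30 of the 34 members differed by less than 2-fold between their highest and lowest library.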

How the data were processed

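The deposited table holds whole-number read counts per gene symbol for 9 libraries, which the authors made before deposit. Its lowest count is 1, and no gene symbol has a count of 0 in any library. The submitters' processing notes name the tools HISAT2, StringTie and Trimmomatic 0.38 and the builds mm10 and GRCm38. What each tool did, the other versions and whether counting used strand were not given in the sources used here. Per the labels' protocols, libraries were made from total RNA with a SMARTer Ultra low kit and TruSeq construction.

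Groups came from the labels. Genes were kept with filterByExpr in edgeR 4.0.16 (R 4.3.3; minimum count 10, minimum total 15), which left out 762. Counts were scaled by TMM, and 1 quasi-likelihood model over the 3 groups gave log2 fold changes, standard errors, 95% intervals and p-values, adjusted by Benjamini-Hochberg over all 18194 genes, with a threshold of 0.05. The common biological coefficient of variation was 0.132. Library totals of 32307869 to 51569143 put the spread between libraries above counting error for all but the least abundant members. CPM are TMM-scaled, and log2 CPM used a prior count of 2. No duplicate libraries were found. Transcript lengths and exon overlaps came from GENCODE vM21, and promoters and positions from RefSeq for GRCm38.p6.

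The members and lists were chosen with earlier results of these data known. Values in every library are given for 12 set genes, any member past the threshold and the 4 members with the smallest p per comparison; from other lists, at most 4 called genes per comparison. Exceptions chosen after their values were seen are Spi1, Cx3cl1, Il34, Mrc1, Hmgxb3 and Calb2. Alternatives were DESeq2 1.42.0, limma 3.58.1 voom with quality weights, other scalings, filters, thresholds and fits, and each library left out. The scripts were tested on simulated data, where DESeq2 made more false calls than the limit first set for all tools. The limit was then kept for edgeR and limma voom only, and DESeq2 served as an alternative throughout.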

Additional observations from a re-analysis of the deposited data

How the results depend on the processing

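For SHNK against stressed saline, member calls were 1 under every scaling, filter and left-out library, and 2 (Spp1 and Mertk) with DESeq2, with limma voom and at an adjusted p of 0.1. For stress they were 0 throughout. For SHNK against non-stressed they were 1 with DESeq2 and 0 to 2 with each library left out. Of the 102 log2 fold changes of single members, 54 kept their sign under all alternatives, and 48 that were never called changed it under at least 1, the largest of these being 0.135 in size. No called value reversed. Leaving out each library moved the member median to between -0.137 and -0.0397 for stress, -0.108 and -0.0225 for SHNK against stressed saline, and -0.182 and -0.0763 for SHNK against non-stressed.

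Counts over all genes depended more on the settings. For stress they were 472 with DESeq2, 102 with limma voom, 370 at an adjusted p of 0.1, and 40 (without stressed saline replicate 2) to 306 with each library left out. For SHNK against stressed saline they were 2005 with DESeq2, 2377 with limma voom, 2182 at 0.1, and 176 (without SHNK replicate 3) to 1385. For SHNK against non-stressed they were 994 with DESeq2, 520 at 0.1, 9 with only the 2 groups fitted, 0 with upper-quartile scaling, no filter or a filter of 1 CPM in 3 libraries, and 0 to 749. For any difference, members were 0 to 1 with each library left out, and all genes 2102 with DESeq2, 1802 at 0.1, and 187 to 1492 with each library left out. The cause of these changes was not tested.

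Same-numbered libraries did not deviate together (correlations of -0.1 to 0.106 over 9 pairs, against -0.194 to 0.108 for other pairs). With a replicate block, member calls were 0 for stress, 1 for SHNK against stressed saline and 0 against non-stressed, where all genes called were 6. Depth limits Ptprc and C3ar1 most, whose intervals are the widest of the set.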
